A study of Rattus norvegicus with 21 samples.

Results

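Rat islets were compared between 5 partially pancreatectomised (PX) animals whose blood glucose had stayed close to the sham level and 10 sham-operated animals. The series holds 21 libraries of RNA from islets of Langerhans of Lewis rats, 11 PX and 10 sham. The 5 near-normal PX libraries (PX 37, 44, 62, 66 and 70, named by animal number) are those with a BG value of 110 or less in the sample title. The other 6 PX libraries have values of 114 or more, and the 10 sham libraries carry animal numbers 21, 22, 24, 46 to 50, 73 and 74. In PX, 90% of the pancreas had been removed, and all animals were followed for 4 weeks after surgery. Every sample title, PX and sham, also carries the tag Inc_YES, whose meaning the labels do not give. The label text gives neither sex nor housing and does not say whether the islets of several animals were pooled. It carries a 4 to 5 week tag without saying whether that is age or time.

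Islets are clusters of endocrine cells in which beta cells make insulin, alpha cells glucagon, delta cells somatostatin and PP cells pancreatic polypeptide, held in a matrix with capillaries, fibroblasts and resident macrophages. Removal of most of the pancreas leaves a small remnant that must meet the whole demand for insulin, and in the rat it is a textbook model of islet adaptation and of glucose-induced loss of beta cell identity. Comparing operated animals that kept glucose low with sham shows what differs with the surgery when glucose is little raised.

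The averaged BG before sacrifice, given in the labels without a unit, was 110, 101, 110, 108 and 108 in PX 37, 44, 62, 66 and 70, against 82 to 104 in sham with a median of 96.5. PX 44 lay inside the sham range, and the other 4 PX animals lay above the highest sham animal. The mean was 107 ± 3.71 (SD, n = 5) for near-normal PX, against 94.7 ± 6.001 (SD, n = 10) for sham; since the rule used BG, this is a description, with no test. Just inside the rule stood PX 37 and PX 62 at 110, and just outside it PX 58 at 114.

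Total counts ran from 4001908 to 11205114 in near-normal PX and from 4695195 to 11266015 in sham. Several libraries stood apart, PX 62 and sham 46 most of all, and the values of many genes and lists below are also given without the library that moved them most. Each library was placed between the sham mean (0) and the mean of the other near-normal PX libraries (1) on genes that were called in a fit from which that library had been left out. The median position was 0.57 for PX 37, 0.22 for PX 44, 1.88 for PX 62, 0.85 for PX 66 and 0.83 for PX 70. PX 44 thus lay nearer the sham mean than the PX mean, and PX 62 lay far beyond the other PX libraries. Among the sham libraries, sham 46 lay at 0.77, and the other 9 lay between -0.12 and 0.10. Over all genes PX 44 was not close to sham: its root mean square distance to the sham mean was 0.72 on the log2 CPM scale, against 0.62 to 0.66 for PX 37, 66 and 70 and 0.998 for PX 62. Sham 46 was 0.77 from the mean of the other sham libraries, farther than PX 44, 37, 66 and 70 from the sham mean, and the other 9 sham libraries were 0.37 to 0.54 away.

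**Figure D1:**
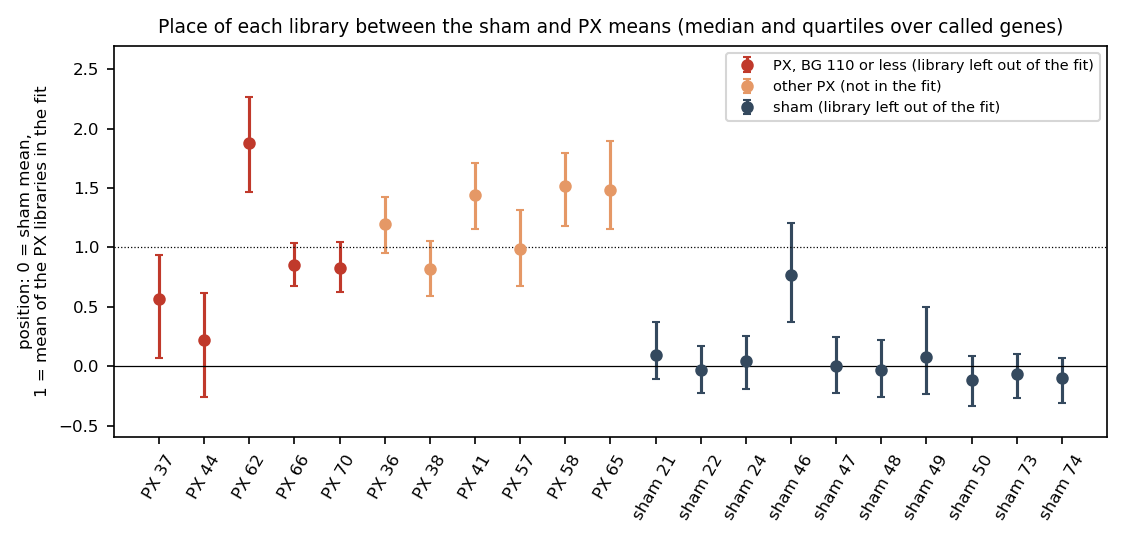
Median position (point) and quartiles (bars) of each library on a scale where 0 is the sham mean and 1 the mean of the PX libraries in the fit, over genes called without that library, except for the other PX libraries, which are placed on the 1256 genes called in the 15-library fit. PX 44 sits at 0.22, PX 62 at 1.88 and sham 46 at 0.77, while the other 9 sham libraries sit near 0.

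Genes of immune cells and of the extracellular matrix were much higher in near-normal PX islets. Most genes of the endocrine cells were not called, which also held for most genes of any kind. Of 13470 genes tested, 964 rose (7.16%) and 292 fell (2.17%) in near-normal PX against sham by the quasi-likelihood test of edgeR, at an adjusted p under 0.05 (Benjamini-Hochberg), 9.32% in all, and the median log2 fold change of all genes was 0.0049. The change reached 2-fold in 699 of the genes that rose and in 56 of those that fell. In 254 genes (1.89%) all 5 PX libraries lay above all 10 sham libraries, and in 31 (0.23%) all lay below. These counts depended on which sham libraries were used. With sham 46 to 50 alone 169 genes rose and 5 fell, and with sham 21, 22, 24, 73 and 74 alone 1142 rose and 277 fell. Without PX 62 504 rose and 60 fell, and without PX 44 1356 rose and 674 fell. With PX 44 and sham 46 both left out 1893 rose and 1282 fell; that pair is the library of each group nearest the other, so higher counts are built into leaving it out.

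Ranked by fold change, the called genes averaging 10 CPM or more (CPM, counts relative to the library total scaled by its TMM factor) were headed by genes known from activated macrophages. Gpnmb, a membrane glycoprotein of such macrophages, stood at 66.2, 57.6, 545, 51.1 and 59.6 CPM in PX 37, 44, 62, 66 and 70. In sham it ran from 0.785 to 4.56 CPM with a median of 1.37. No PX library overlapped sham, PX 62 was far above the others, and PX 44 was level with PX 66 and PX 70. Its log2 fold change was 6.48 ± 0.62 (SE; adjusted p = 3.77e-05), and 5.09 without PX 62 (adjusted p = 2.41e-09). Mmp12, the macrophage elastase, had 48.1, 82.8, 442, 22.7 and 49.6 CPM in the same PX libraries, against 0.372 to 3.86 CPM in sham (median 1.27). Here PX 44 was the second highest PX library, and the log2 fold change was 6.44 ± 0.64 (SE; adjusted p = 4.17e-05), and 5.11 without PX 62. C3, the central complement component, Lgals3 (galectin-3) and Spp1 (osteopontin) followed with log2 fold changes of 5.48, 5.39 and 5.26. Without PX 62 these 3 values were 4.52, 3.93 and 3.13, all still called, and without sham 46 C3 was at 6.49. For C3, PX 44 had 13.1 CPM, the lowest of the PX libraries, and the highest sham library had 8.77 CPM. The sham median of C3 was 0.833 CPM, under the 1.43 CPM that the count filter asks for.

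The 250 bases before to 50 after the start of the genes at both ends of the ranking were taken from RefSeq (GRCr8), with 10 of the 12 genes of highest and 11 of the 12 of lowest fold change matched. They are shown for Gpnmb and Mmp12, the genes of highest fold change, and for Sst, the hormone gene that fell, with motif matches in capitals. The letters TGANTCA (AP-1), CACGTG (E-box) and, for NF-kB, GGGA and TTCC with any 2 bases between them were searched on both strands, and TGACGTCA (the cyclic AMP response element, CRE) was added after Sst showed no match to those; none of these motifs overlapped another in the printed windows.
Gpnmb, chr4:79340878-79341177 (+): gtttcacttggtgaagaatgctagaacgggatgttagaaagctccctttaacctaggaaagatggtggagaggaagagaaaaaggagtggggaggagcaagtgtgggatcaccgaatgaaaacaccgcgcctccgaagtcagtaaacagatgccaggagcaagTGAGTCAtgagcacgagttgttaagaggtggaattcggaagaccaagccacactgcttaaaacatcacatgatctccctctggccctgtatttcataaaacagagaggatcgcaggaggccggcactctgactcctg
Mmp12, chr8:12866402-12866701 (+): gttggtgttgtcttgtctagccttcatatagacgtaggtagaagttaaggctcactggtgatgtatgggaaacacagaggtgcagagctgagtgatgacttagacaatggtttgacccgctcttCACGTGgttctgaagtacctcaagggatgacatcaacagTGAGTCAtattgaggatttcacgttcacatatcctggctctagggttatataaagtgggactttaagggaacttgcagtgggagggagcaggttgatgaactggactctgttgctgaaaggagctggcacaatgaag
Sst, chr11:90461296-90461595 (+): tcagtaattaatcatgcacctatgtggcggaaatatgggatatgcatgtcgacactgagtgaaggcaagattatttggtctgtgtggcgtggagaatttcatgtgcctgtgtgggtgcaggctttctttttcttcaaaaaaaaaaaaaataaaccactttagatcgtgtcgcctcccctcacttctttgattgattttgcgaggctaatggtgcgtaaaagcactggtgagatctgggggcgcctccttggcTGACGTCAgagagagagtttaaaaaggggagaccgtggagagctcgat
The AP-1 letters lay 87 bases before the start in both Gpnmb and Mmp12, and Mmp12 also held the E-box. Among the matched genes, AP-1 letters were in 2 of the 10 highest and in 1 of the 11 lowest (Tenm2), against 7.33% of 33469 rat promoter windows of the same length. The E-box was in 1 of the highest and 0 of the lowest (6.42% of windows), the NF-kB letters in 0 of both (1.3%), and CRE in 1 of the lowest, Sst (1.83%). A match is letters in a window, not a bound site.

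The other 7 genes among the 12 highest were Postn, Lyz2, Tnc, Il33, Cd53, Itgb2 and Ctsk, with log2 fold changes from 3.70 to 4.87. Without PX 62, Postn was at 4.01, Il33 at 3.09, Cd53 at 2.94, Lyz2 at 2.85, Itgb2 at 2.69 and Ctsk at 2.17, all still called, and without sham 46 Postn was at 5.57. Postn (periostin) and Tnc (tenascin C) are matrix proteins of tissue repair, Il33 is an alarm cytokine stored in nuclei, and Ctsk is a collagen-cleaving cathepsin. In all 12 of these highest genes the 5 PX libraries lay above every sham library. PX 44 was lowest of the PX libraries for Tnc, at 6.74 CPM against 4.91 CPM in the highest sham library.

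**Figure D2:**
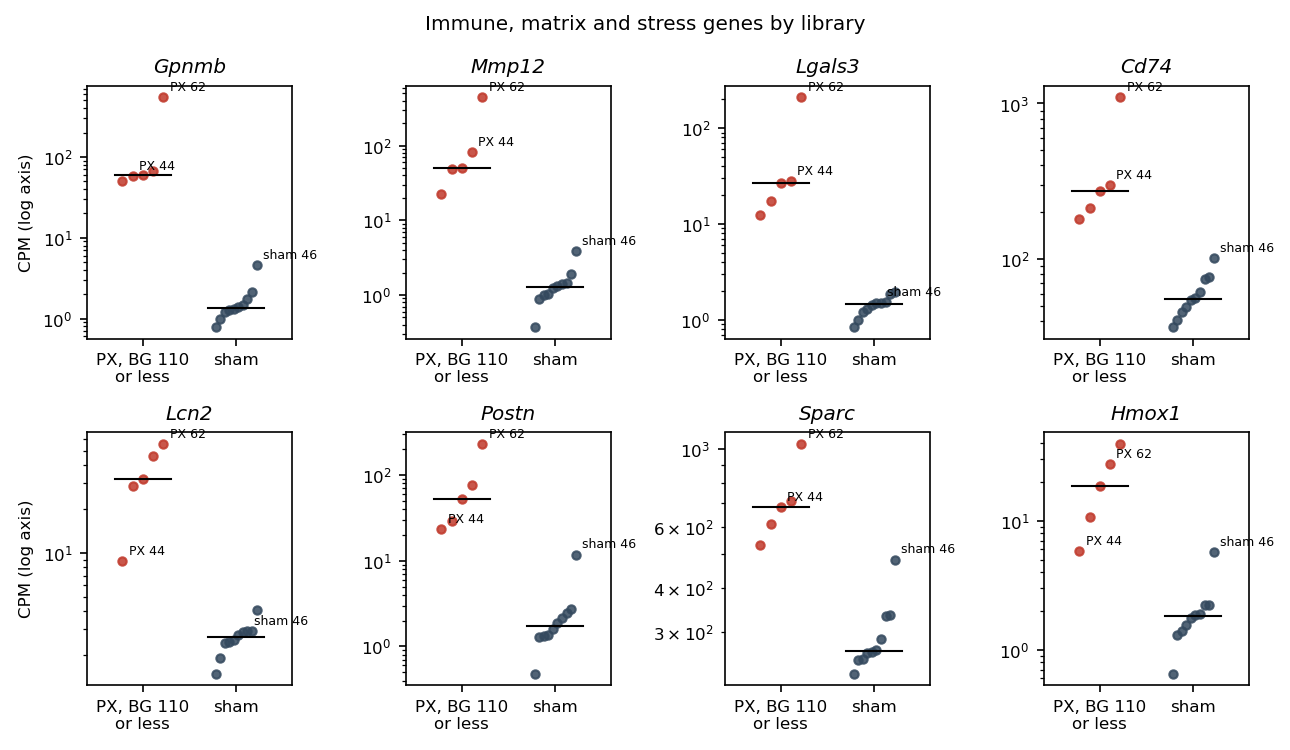
CPM on a log axis for 8 immune, matrix and stress genes, 1 point per library, near-normal PX on the left of each panel and sham on the right, with a line at the median. PX 62 is the highest PX library in all panels but Hmox1, and PX 44, the lowest for Lcn2, Postn and Hmox1, is among the higher PX libraries for Mmp12, Lgals3 and Cd74.

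All 15 macrophage markers tested rose, with a median log2 fold change of 2.62, against 7.16% of all genes and a median of 0.0049. Cx3cr1, the fractalkine receptor of tissue macrophages, had 9.66, 7.73, 24.6, 7.23 and 12.5 CPM in PX 37, 44, 62, 66 and 70, against 1.70 to 3.81 CPM in sham (median 2.96). All PX libraries lay above sham, and the log2 fold change was 2.11 ± 0.26 (SE; adjusted p = 6.14e-05). C1qc, a subunit of the complement initiator C1q that macrophages make, rose by 2.29 ± 0.32 (1.61 without PX 62). Of the 12 activated macrophage markers tested, 10 rose (median 2.31), and 7 without PX 62 (median 1.19). In 12 of the 15 macrophage markers at least 5 sham libraries themselves reached the CPM that the filter asks for (1.43), and the other 3 fell short of that in sham. Macrophage rises numbered 13 without PX 62 (median 1.64) and 7 with sham 46 to 50 alone (median 2.51). In those fits 3.71% and 1.29% of all genes rose. The macrophage score, the mean log2 CPM of the markers, was 3.97 ± 1.13 (SD, n = 5) for near-normal PX, against 1.80 ± 0.396 (SD, n = 10) for sham. The two-sided exact permutation test over 3003 splits gave p = 0.000333, the smallest these splits can give (adjusted over 13 library measures p = 0.00108). All 15 markers enter the score, with the 3 that fell short of the filter CPM in sham, so this p is not free of the filter. In bulk islets more macrophages and more RNA of these genes per cell cannot be told apart, here and in every list of other cells.

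All 7 class II antigen presentation genes tested rose, with a median of 2.90, against 7.16% of all genes. Cd74, the invariant chain, had 273, 300, 1092, 213 and 180 CPM in the PX libraries in the same order, against 36.8 to 102 CPM in sham (median 55.7). PX 44 was the second highest of the PX libraries, and every PX library exceeded every sham library. Cd74 had a log2 fold change of 2.78 ± 0.35 (SE; adjusted p = 0.000145), and 2.03 without PX 62. RT1-Da and RT1-Ba, class II chains, rose by 3.40 and 3.14, or 2.35 and 2.11 without PX 62, with an uncertain split of reads among the closely similar RT1 genes. Of 15 lymphocyte markers listed 3 passed the filter, Ptprc, Coro1a and Cd4, and all 3 rose. Ptprc and Coro1a are common to leukocytes and rat macrophages also carry Cd4, so none of the 3 is particular to lymphocytes, and the others listed were not tested. The score of these 3 genes was 4.70 ± 1.01 in near-normal PX and 2.60 ± 0.397 in sham (SD; exact permutation test, adjusted p = 0.00108). No neutrophil marker passed the filter on low counts.

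Of 13 complement genes tested 11 rose, with a median of 2.02, against 7.16% of all genes. In 10 of the 13 at least 5 sham libraries reached the filter CPM, and 8 of these 10 rose. Without PX 62, where 3.71% of all genes rose, 7 complement genes did (median 1.54). C1r, a protease of the first complement component, rose by 1.68 ± 0.30, but PX 44 was at 9.88 CPM, below the sham median of 10.7. Of 22 NF-kB targets and cytokines listed 11 passed the filter, and 6 of the 11 rose, against the same 7.16% of all genes. Of the 9 with at least 5 sham libraries at the filter CPM, 4 rose. The other 2, Il1rn and Ccl2, passed the filter through the PX libraries, with sham medians of 0.448 and 0.678 CPM. Lcn2, a siderophore-binding protein of epithelial and immune injury responses, had 28.7, 8.81, 55.6, 45.97 and 31.8 CPM in the PX libraries, against 1.496 to 4.10 CPM in sham. All PX libraries exceeded sham, PX 44 being the lowest, and the log2 fold change was 3.70 ± 0.30 (SE; adjusted p = 1.01e-06). Il1rn, the interleukin 1 receptor antagonist, and Ccl2, a monocyte chemokine, rose by 5.27 and 3.36, or 3.83 and 2.55 without PX 62; the highest sham libraries were at 1.40 and 1.496 CPM. Of 20 interferon-stimulated genes 6 rose (median 0.72, with 7.16% of all genes rising), among them Gbp2 by 1.78 and Mx1 by 2.71 (1.64 without PX 62). The count was 2 without PX 62 and 10 without PX 44, where 3.71% and 9.95% of all genes rose. Psmb8, an immunoproteasome subunit, rose by 1.42 ± 0.34, with PX 44 at 2.79 CPM inside the sham range of 1.20 to 3.02 CPM, and it did not pass without PX 62 (0.73, adjusted p = 0.138).

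Of 31 matrix genes tested 28 rose, with a median of 1.81, and none fell, where 7.16% of all genes rose and 2.17% fell. In 29 of the 31 at least 5 sham libraries reached the filter CPM, and 26 of these 29 rose. Sparc, a collagen-binding glycoprotein, had 531, 681, 1034, 610 and 708 CPM in the PX libraries, against 228 to 482 CPM in sham (median 265). The groups did not overlap, and the log2 fold change was 1.27 ± 0.17 (SE; adjusted p = 0.000119). Col3a1, fibrillar collagen, had 1073, 385, 1938, 654 and 711 CPM in the PX libraries, against 85.6 to 406 CPM in sham (median 105). Only PX 44 fell inside the sham range, below sham 46. Vcan, a large proteoglycan, rose by 4.09 ± 0.44, from a sham median of 0.603 CPM, under the 1.43 CPM of the filter. Of 14 mesenchymal markers 11 rose (median 1.47), against the same 7.16% of all genes. Dcn, Lum and Fap of fibroblasts were among the 11, Lum rising by 3.07 (2.04 without PX 62) and Fap by 2.23. In 13 of the 14 at least 5 sham libraries reached the filter CPM, and 10 of these 13 rose. For Fap the sham median was 1.30 CPM, under the filter CPM. The mesenchymal score was 5.38 ± 0.622 in near-normal PX and 3.86 ± 0.460 in sham (SD, exact permutation test, adjusted p = 0.00173). All 14 markers enter this score, with the member that fell short of the filter CPM in sham, so its p is not free of the filter. Matrix rises numbered 22 without PX 62, where 3.71% of all genes rose. They numbered 9 with sham 46 to 50 alone, where 1.29% of all genes rose and the matrix median was 1.90.

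Markers of other cells of the pancreas moved less. Of 12 duct markers 4 rose (median 0.46), against 7.16% of all genes, and 2 rose without PX 62, where 3.71% of all genes did. The 4 were led by Tspan8, an epithelial tetraspanin. It had 19.8, 13.4, 24.5, 14.3 and 8.90 CPM in PX and 1.61 to 6.43 CPM in sham (log2 fold change 2.60 ± 0.30, SE). The duct score was 5.08 ± 0.276 in near-normal PX and 4.20 ± 0.265 in sham (SD; exact permutation test, adjusted p = 0.00108). Of 11 endothelial markers 3 rose (median 0.42), against the same 7.16% of all genes. Cdh5, the junction cadherin of vessels, rose by 0.65 ± 0.16. Cdh5 did not pass without PX 62 or PX 70 (adjusted p = 0.0519 in both), and 6 endothelial markers rose without sham 46, where 10.3% of all genes did. The endothelial score difference of 0.40 had an adjusted p = 0.0309 and lost its call in several of the alternatives. Fabp4, the fat cell lipid carrier that capillaries and macrophages also make, rose by 1.45 and was the only adipocyte marker tested.

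None of 27 acinar markers was called, where 9.32% of all genes were, although their median log2 fold change was 1.07. Acinar genes, which encode digestive enzymes, took 12.05% to 28.9% of the counts in near-normal PX and 0.651% to 23.9% in sham. Within sham the share went with the animal number: 13.2% to 23.9% in sham 46 to 50 and 0.651% to 6.17% in the other 5. The means were 20.7% ± 7.42 in near-normal PX and 10.9% ± 9.43 in sham (SD; exact permutation test, adjusted p = 0.0896). Against sham 46 to 50 the median was 0.25, and against the other 5 sham it was 3.45 with 25 of 27 members called. In the latter fit 8.68% of all genes rose and 2.1% fell. The part of this difference in the other results was not tested beyond the fit with the acinar score as a covariate, in which 367 genes rose and 53 fell. The Reg genes, secreted by acinar cells in injury, showed how much 1 sham library can hold. Reg3a had 159, 949, 182, 1184 and 619 CPM in the PX libraries, against 2.24 to 1546 CPM in sham (median 48.7). Sham 46 was the sham library at 1546 CPM, and the next was at 140 CPM. The log2 fold change of 1.65 ± 1.27 did not pass (adjusted p = 0.48), and without sham 46 it was 3.71 (adjusted p = 0.0168).

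**Figure D3:**
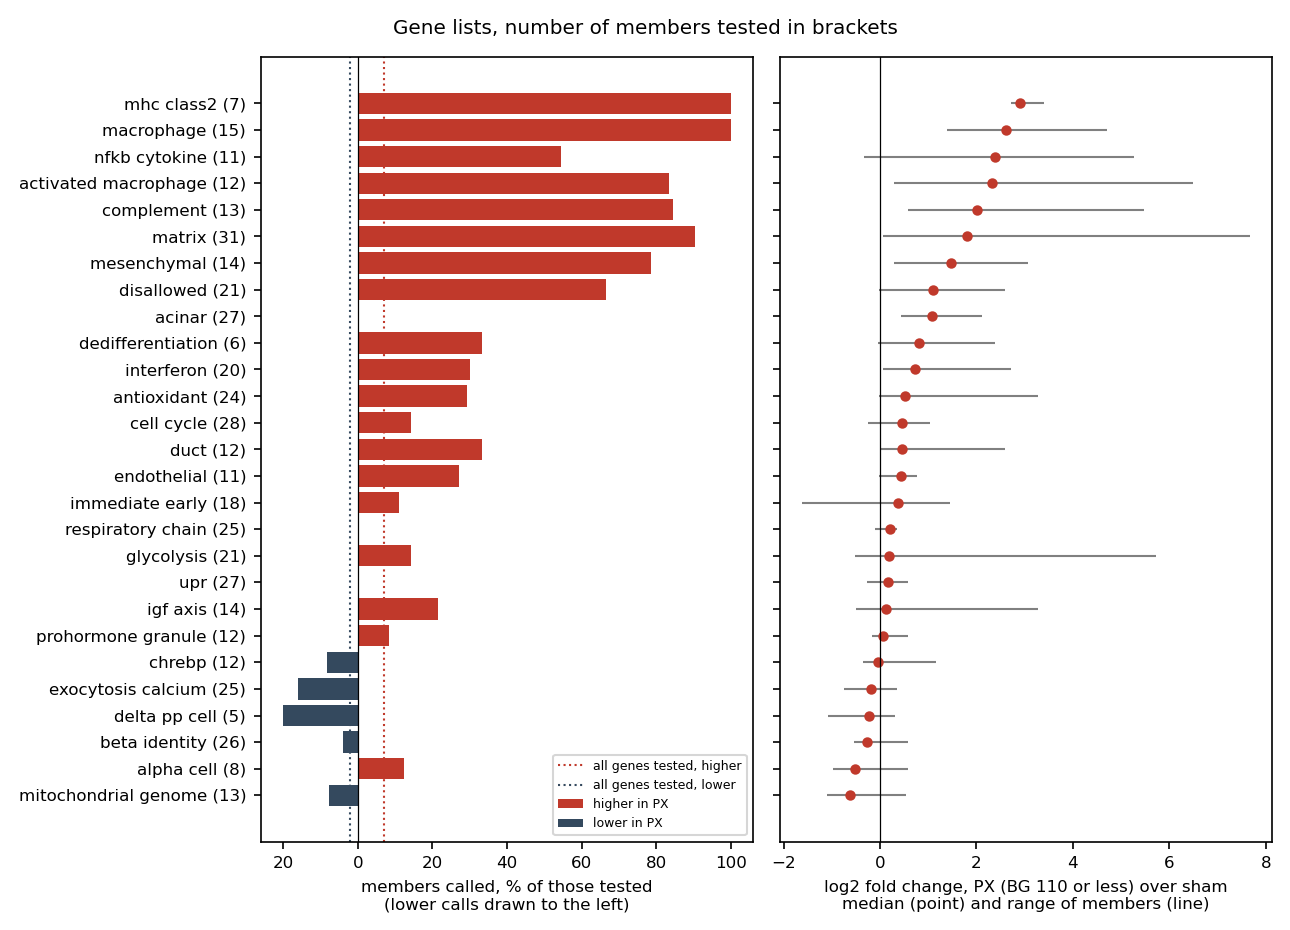
Left, percent of tested members of each gene list called higher (to the right) or lower (to the left) in near-normal PX than in sham, with dotted lines at 7.16% and 2.17%, the shares over all genes; right, the median (point) and range (line) of the members' log2 fold changes. Lists with 5 or more tested members are shown, and macrophage, class II and matrix lists have nearly every member called. The beta identity and respiratory chain lists have almost none, in a comparison that called 9.32% of all genes.

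The hormone genes other than Sst were not called. Sst, somatostatin of delta cells, had 427, 352, 503, 754 and 406 CPM in PX 37, 44, 62, 66 and 70, against 459 to 1324 CPM in sham with a median of 1112. PX 44 was the lowest of these 15 libraries, and sham 46 was the lowest of sham, below PX 62 and PX 66. Its log2 fold change was -1.08 ± 0.22 (SE; adjusted p = 0.00416). Against sham 46 to 50 alone it was -0.95 and did not pass (adjusted p = 0.111). Insulin itself, from Ins1 and Ins2, showed log2 fold changes of -0.23 ± 0.25 and 0.11 ± 0.31, and Gcg and Ppy of 0.02 ± 0.34 and 0.03 ± 0.33 (SE; none called). PX 44 had the lowest Ins1, 41987 CPM, with the highest Gcg and Iapp. Insulin genes took 7.999% ± 2.23 of the counts in near-normal PX and 11.1% ± 2.55 in sham (SD; exact permutation test, adjusted p = 0.0622).

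Of 26 beta identity genes 1 fell (2.17% of all genes fell) and none rose (7.16% of all genes rose), with a median of -0.27. That gene was Pax6, the homeodomain factor of all endocrine cells, with 125, 144, 120, 138 and 109 CPM in the PX libraries, against 146 to 212 CPM in sham (median 168). All PX libraries lay below all sham, with a log2 fold change of -0.43 ± 0.10 (SE; adjusted p = 0.0120), which did not pass without PX 62 (adjusted p = 0.0665), with sham 46 to 50 alone (adjusted p = 0.272), with all 21 libraries in the fit (adjusted p = 0.0599) or with the acinar covariate (adjusted p = 0.102). Pdx1, Nkx6-1 and Mafa, factors of mature beta cells, had log2 fold changes of -0.37, -0.36 and -0.07, and Ucn3 of -0.30, none called; without PX 37 Pdx1 and Nkx6-1 passed at -0.49 and -0.68. Slc2a2, the glucose transporter, and Abcc8 and Kcnj11, the subunits of the ATP-sensitive potassium channel, had values of 0.10, -0.40 and -0.32, none called, though Abcc8 passed without PX 37 or sham 21 (both -0.49). The beta identity score was 7.71 ± 0.128 in near-normal PX and 7.91 ± 0.130 in sham (SD, exact permutation test, adjusted p = 0.0281). The difference of -0.21 was -0.47 with library totals only. The macrophage and matrix genes described above were higher in these PX libraries, and their part in this difference was not tested. Counts of falls in this list were 5 without PX 44, 6 without PX 37 and 0 without PX 62. In those fits 4.94%, 3.89% and 0.442% of all genes fell.

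Of 25 exocytosis and calcium genes 4 fell and none rose (median -0.19). They were Cacnb3, Cacna1c and Cacna1d, subunits of voltage-gated calcium channels, and Rims2, a vesicle-docking scaffold, at -0.57, -0.68, -0.55 and -0.52. Cacnb3 had 96.4, 61.2, 61.8, 68.8 and 66.5 CPM in PX and 88.3 to 141 CPM in sham, with only PX 37 inside the sham range. Cacnb3 kept its call in all 15 fits that left out 1 library, but Cacna1d and Rims2 lost theirs in 11 of the 15 each and Cacna1c in 6. The count of falls was 1 without PX 62 (0.442% of all genes fell in that fit, against 2.17% with every library) and 6 without sham 46 (4.04%). With sham 46 to 50 alone none of the 4 was called. Pam, which amidates peptide hormones, rose by 0.58 ± 0.17. It was the only 1 of 12 granule genes called, where 7.16% of all genes rose. It lost its call in 11 of the 15 fits that left out 1 library, and it was at 0.30 with library totals only (adjusted p = 0.313). Among genes with the largest falls, Cabp7, a calcium-binding protein, had 33.1, 56.9, 11.7, 29.9 and 17.8 CPM in PX and 21.5 to 92.5 CPM in sham (median 75.7; log2 fold change -1.25 ± 0.33, SE; adjusted p = 0.0243). Sham 46 gave the 21.5 CPM, and the call was lost without PX 62, PX 66 or PX 70 (adjusted p = 0.0898 without PX 62). The other 11 of the 12 largest falls were Shc2, Tenm2, MAST1, Tenm4, Dnah2, Ndst4, Ccdc187, Mt-nd4l, Add2, Acvr1c and Sst, with log2 fold changes from -1.30 to -1.08. Tenm2 and Tenm4 are teneurins, cell adhesion proteins, and Acvr1c is the activin receptor ALK7. Mt-nd4l lost its call in 10 of the 15 fits that left out 1 library, Ndst4 without PX 62, 66 or 70, MAST1 without PX 62 and Tenm4 without PX 70. None of the 12 passed with sham 46 to 50 alone, and in Dnah2 alone of the 12 did no PX library reach the sham range.

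**Figure D4:**
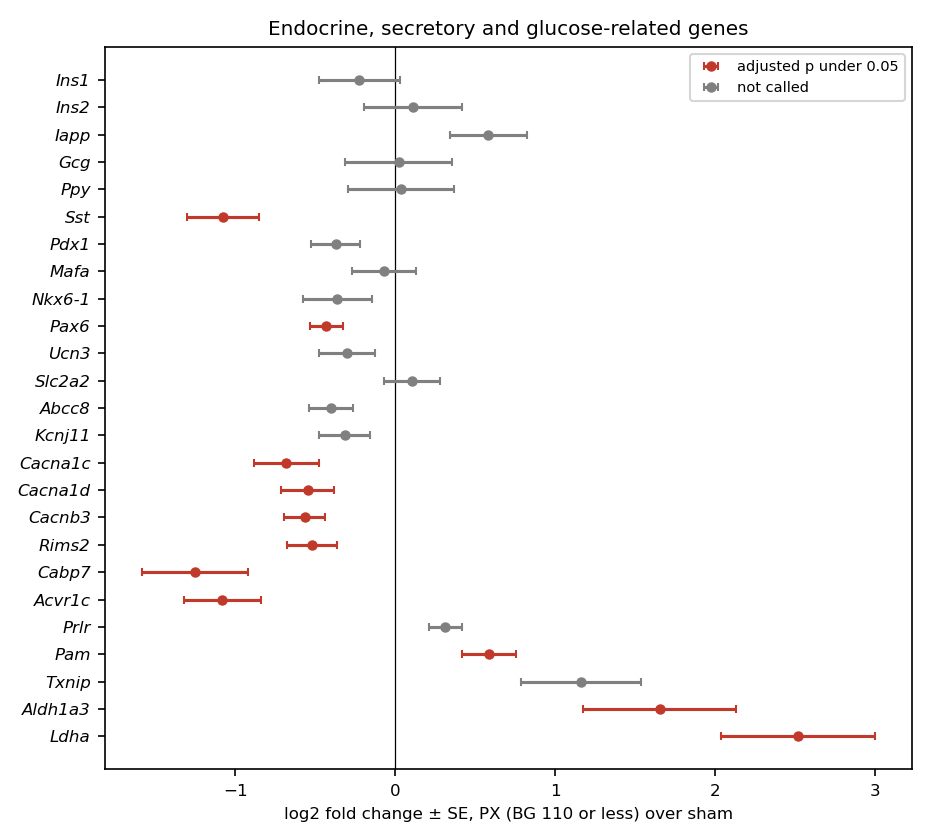
Log2 fold change (point) and SE (bar) of endocrine, secretory and glucose-related genes, near-normal PX over sham, red where the adjusted p was under 0.05 and grey where it was not. Sst, Cabp7 and Acvr1c lie below -1, the insulin, glucagon and pancreatic polypeptide genes lie near 0, and Aldh1a3 and Ldha lie above 1.5.

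Disallowed genes are those that beta cells hold at low levels. Of these, 14 of 21 rose and none fell (median 1.09), where 7.16% of all genes rose and 2.17% fell. With sham 46 to 50 alone 2 rose, where 1.29% of all genes did. Ldha, lactate dehydrogenase A, had 9.66, 5.12, 66.9, 14.8 and 6.72 CPM in the PX libraries, against 1.78 to 6.55 CPM in sham (median 3.14). PX 44 lay inside the sham range, and PX 62 stood far above all. Ldha thus had a log2 fold change of 2.52 ± 0.48 (SE; adjusted p = 0.00282), and 1.33 without PX 62 (adjusted p = 0.0171). Mgst1, Hk2 and Rest, a glutathione transferase, a hexokinase and a silencer of neuronal genes, rose by 2.41, 2.59 and 1.52, and without PX 62 Mgst1 and Hk2 were at 1.58 and 1.91. Markers of macrophages and fibroblasts rose in the same libraries (medians 2.62 and 1.47); their part in this list was not tested. Aldh1a3, an aldehyde dehydrogenase of dedifferentiated beta cells, had 15.2, 19.3, 27.6, 14.0 and 20.5 CPM in the PX libraries, against 1.86 to 26.2 CPM in sham (median 3.39). All PX libraries exceeded 9 of the 10 sham libraries, and the exception was sham 46 at 26.2 CPM. The log2 fold change was 1.65 ± 0.48 (adjusted p = 0.0374), and without sham 46 it was 2.33 (adjusted p = 1.05e-05). It lost its call in 13 of the 15 fits that left out 1 library, at adjusted p-values up to 0.150 (without PX 62), and with sham 46 to 50 alone (adjusted p = 0.371). Vim, vimentin of mesenchymal cells, rose by 2.38.

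Txnip, a glucose-induced inhibitor of thioredoxin, had 187, 118, 515, 520 and 402 CPM in PX 37, 44, 62, 66 and 70, against 73.5 to 324 CPM in sham (median 139). PX 62, 66 and 70 lay above all sham, and PX 37 and PX 44 lay within the sham range. The log2 fold change of 1.16 ± 0.37 did not pass (adjusted p = 0.0642). Without PX 44 it was 1.38 (adjusted p = 0.0175) and without sham 46 1.35 (adjusted p = 0.0160), and it also passed without PX 37 or sham 48. Of 12 ChREBP targets, genes that follow glucose metabolism, none rose and 1 fell: Acaca, acetyl-CoA carboxylase, at -0.36 ± 0.08 (adjusted p = 0.0101), with all PX libraries between 53.6 and 56.6 CPM and all sham libraries between 64.8 and 75.5 CPM. Of 21 glycolysis genes 3 rose (median 0.18), and 6 without sham 46, where 10.3% of all genes did. In 20 of the 21 at least 5 sham libraries reached the filter CPM, and 2 of these 20 rose. No member of the respiratory chain list (25 tested) or of the unfolded protein response list (27 tested) was called. Over all genes 7.16% rose and 2.17% fell. Hspa5, the main chaperone of the endoplasmic reticulum, was at 0.34 ± 0.14 (adjusted p = 0.133). Without sham 46, 7 of the 27 unfolded protein response genes rose, in a fit in which 10.3% of all genes did, and Hspa5 passed (0.42, adjusted p = 0.0165).

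Of 24 antioxidant genes 7 rose (median 0.52). In 23 of the 24 at least 5 sham libraries reached the filter CPM, and 6 of these 23 rose. The rises numbered 4 without PX 62 and 11 without sham 46, where 3.71% and 10.3% of all genes rose. Hmox1, heme oxygenase, had 18.6, 5.84, 27.5, 10.8 and 39.4 CPM in the PX libraries, against 0.654 to 5.73 CPM in sham (median 1.82). The groups did not overlap, though PX 44 and sham 46 nearly met, and the log2 fold change was 3.28 ± 0.41 (SE; adjusted p = 8.45e-05). Prdx1, a peroxiredoxin, had 38.9, 167, 147, 71.8 and 79.8 CPM in PX and 33.5 to 59.7 CPM in sham, with PX 44 the highest of these 15. Immediate early genes showed 2 rises of 18, a share near the 7.16% of all genes. There were 0 without PX 62, where 3.71% of all genes rose, and 6 without PX 44, where 9.95% did. Atf3, a stress-induced factor, was at 1.44, with PX 44 at 3.06 CPM, below the sham median of 3.99 CPM, and it lost its call in 6 of the 15 fits that left out 1 library. Jun and Nr4a1, at 0.83 and -0.74, were not called; Jun passed without PX 44 or sham 46, and Nr4a1 without sham 46. Cell cycle genes showed 4 rises of 28 (median 0.46), against the same 7.16%, 1 without PX 62 and 7 without sham 46, where 10.3% of all genes rose. Cdk1 and Mcm3 were at 1.03 and 1.01, and Mcm3 did not pass without PX 62 (adjusted p = 0.0916). Of 14 genes of the insulin-like growth factor axis 3 rose, Igf1 and Igfbp5 by 1.74 and 1.64. In 12 of the 14 at least 5 sham libraries reached the filter CPM, and 2 of these 12 rose.

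On genes called without it, PX 44 differed by gene group in how near sham it lay. It lay beyond all sham libraries in 7 of 7 class II genes, in 10 of 15 macrophage markers and in 6 of 9 antioxidant genes. The same held for 7 of 30 matrix genes, 4 of 15 disallowed genes and 0 of 5 immediate early genes. Of the 1976 genes called without it and also tested in the 15-library fit, 25.4% had PX 44 beyond the sham range. The share was 29.7% of the rises and 17.0% of the falls. The matrix and disallowed counts are near that share of rises, and the immediate early genes are few. For PX 44 the median position was 0.32 for rises and -0.03 for falls. For PX 37 the medians were 0.75 and 0.11, for PX 62 1.94 and 1.20, for PX 66 0.86 and 0.69, and for PX 70 0.83 and 0.82. PX 37 and PX 44, with the lowest medians, also carry the lowest animal numbers of the 5, and the part of animal number in this was not tested. PX 44 also had the lowest BG, the lowest insulin share (4.96% of counts) and the highest mitochondrial share (1.66%) of the 5; the part of these in its position was not tested.

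Near-normal PX and the other 6 PX libraries, with BG from 114 to 174, were compared in a fit of all 21 libraries. No gene was called in either direction among 13900 tested (0%; edgeR, smallest adjusted p = 0.865), with 657 genes (4.73%) at an unadjusted p under 0.05. DESeq2 and limma voom also called 0, with 681 and 762 genes unadjusted. Without PX 62 it was again 0, with 1907 unadjusted and a smallest adjusted p = 0.0878. That no gene passed does not show that the groups are alike, and the intervals are wide. For Txnip, near-normal PX averaged 320 ± 167 CPM and the other PX 596 ± 430 CPM (SD, n = 5 and n = 6). The log2 difference was -0.90 with an approximate 95% interval from -1.83 to 0.03. For Lcn2 the difference was -0.97 (-1.63 to -0.30), for Tspan8 -1.19 (-1.80 to -0.58) and for Cabp7 0.85 (0.12 to 1.59); these intervals are not adjusted for the number of genes. For Gpnmb it was 0.05 (-1.47 to 1.58), for Ldha -0.41 (-1.49 to 0.68), for Aldh1a3 -0.48 (-1.41 to 0.44) and for Sst 0.15 (-0.31 to 0.61). In the same fit, 1113 genes rose (8.01%) and 500 fell (3.6%) in near-normal PX against sham, and 2277 rose (16.4%) and 2360 fell (17%) in the other PX against sham. Those comparisons share the sham libraries. On the 1256 genes of the 15-library fit the other PX libraries had median positions from 0.82 to 1.51, with the same sham libraries setting the 0.

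**Figure D5:**
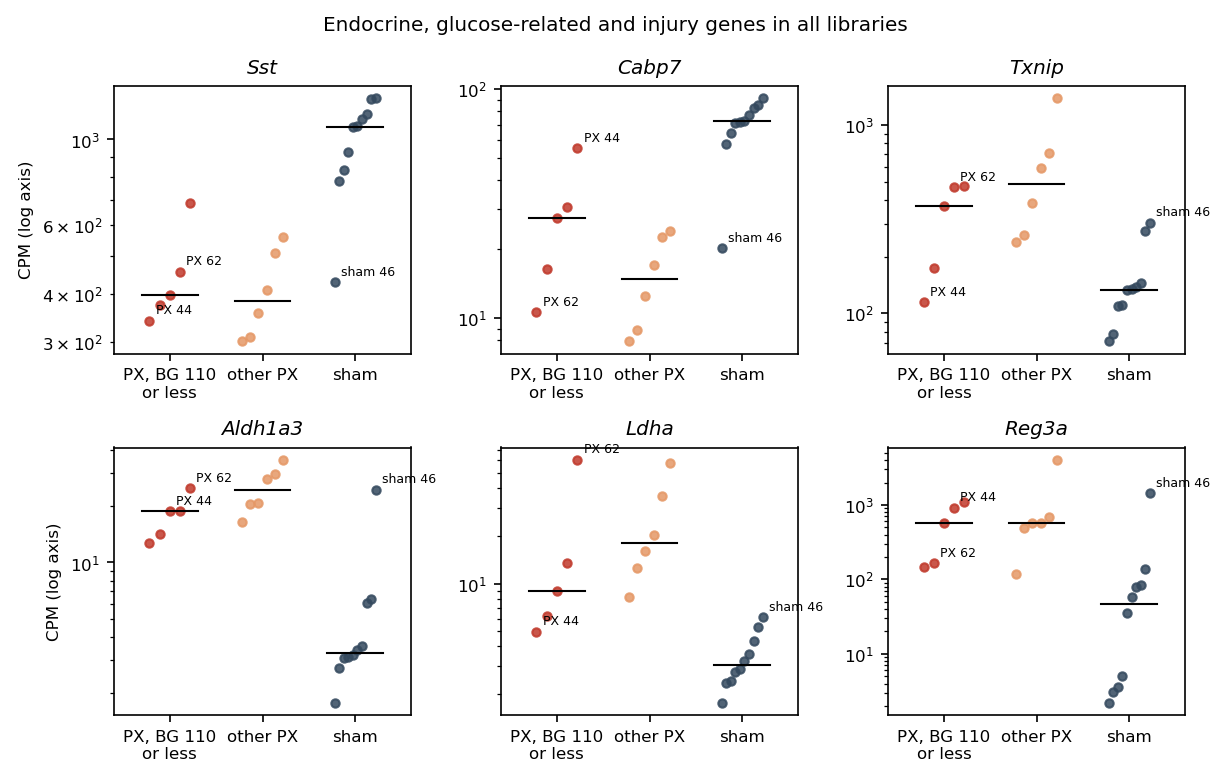
CPM on a log axis, scaled over all 21 libraries, for 6 genes in near-normal PX (left), the other PX (middle) and sham (right), 1 point per library with a line at the median. Sham 46 lies among the PX libraries for Sst, Cabp7, Aldh1a3 and Reg3a, and PX 44 is the lowest near-normal PX library for Sst, Txnip and Ldha and the highest for Cabp7.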

How the data were processed

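RNA of rat islets was sequenced in 21 libraries, extracted with miRNeasy and made into libraries with a directional kit, per the labels. The submitters' processing notes name FastQC, Subread, featureCounts and limma but no version of any. Build, annotation and strand setting: not given in the sources used here. Overlapping antisense genes may therefore share reads. The deposited counts give whole reads for each gene name, without normalization, per the file headers; 173 of 28914 names span several chromosomes. The authors' deposited comparison table was not used.

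The counts were scaled by TMM (reference sham 50) and tested with edgeR 4.0.16 (R 4.3.3), after filterByExpr with a count of 10 and a total of 15 as minimum. Robust quasi-likelihood models without covariates were fitted to the 15 libraries, and to all 21 for near-normal against other PX. Tests were two-sided with Benjamini-Hochberg adjustment at 0.05. SEs come from the fitted fold change and its statistic, and 95% intervals are the log2 fold change ± 1.96 SE. The 1.96 is the normal value and leaves out the limited degrees of freedom of the test, so these intervals are somewhat too narrow. Log2 CPM used a prior count of 2. Single library measures used exact permutation tests (scipy 1.17.1), adjusted over 13 measures. The fits were tested on simulated counts. The fit against sham called 13.4%, 55.2% and 89.4% of genes given log2 changes of 0.5, 1 and 2. For near-normal against other PX these shares were 1.49%, 50.7% and 84.8%. False calls were 2.78% and 6.19% of the calls in the 2 fits. No pair of libraries agreed within sampling noise (lowest chi-square per degree of freedom 4.12, sham 73 and 74). Nothing beyond the animal numbers says that libraries came from separate animals, so the spread that p-values reflect may be technical.

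The rule for named genes took the 12 highest and 12 lowest fold changes of called genes with a symbol and a mean CPM of 10 or more, 17 islet genes regardless of result, and the 4 members of lowest p in each of 33 lists (542 genes, 529 in the file). Fewer than the rule allows are named, chosen after their values were seen, and some genes that it names are not reported here. The members, lists and rules were chosen with earlier results of these data known. Alternatives were other scalings (DESeq2 size factors, library totals, other TMM references, abundant genes out of the totals), no filter or CPM above 1, DESeq2 1.42.0, limma voom (limma 3.58.1), all 21 libraries, the acinar score as a covariate, sham 46 to 50 alone, the other 5 sham alone (2 runs of animal numbers together), and leaving out single libraries. Leaving out PX 62 with sham 46, PX 44 with PX 62 and PX 44 with sham 46 was chosen after seeing the data. No fit could hold the runs of animal numbers as a term, since each run holds libraries of 1 group.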

Additional observations from a re-analysis of the deposited data

Results flagged for a closer look

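Each library was compared with the others of its group, for the 13 library measures and the log2 CPM of the 88 genes considered for the text. A value was picked when its gap to the nearest other library exceeded Dixon's 95% critical share of the group's range. Of 202 sample groups, 51 values were picked; chance picks about 1 in 20 groups. The search was first run on CPM and later moved to log2 CPM, the scale of the gene comparisons, after the first result had been seen; on CPM it picks 61.

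PX 62 was picked 20 times, each time as the highest near-normal PX library. Its macrophage score was 5.93 against 3.76 for the next library, and its activated macrophage score 7.82 against 5.48. Its log2 CPM was 9.09 for Gpnmb, 7.71 for Lgals3, 9.62 for Spp1, 10.35 for Lyz2, 7.19 for Il33, 6.65 for Cd53, 7.42 for Itgb2 and 7.88 for Ctsk. It was 4.52 for Adgre1, 5.95 for C1qc, 6.36 for Il1rn, 10.09 for Cd74, 9.92 for RT1-Da, 8.29 for RT1-Ba and 5.26 for Gbp2. It was 6.78 for Lum, 3.72 for Fap and 8.004 for Vim.

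Sham 46 was picked 23 times within sham. Its macrophage score was 2.83, its activated macrophage score 4.16 and its mesenchymal score 5.03, all highest, and its beta identity score of 7.60 was lowest. Among genes it was highest in log2 CPM for Gpnmb (2.27), Postn (3.595), Lyz2 (5.195), Itgb2 (3.38), Aldh1a3 (4.73), Sparc (8.91), Col3a1 (8.67), Vim (5.36), Hmox1 (2.59), Mcm3 (3.46), Hspa5 (11.62) and Igfbp5 (5.56). It was lowest for Shc2 (2.64), Cabp7 (4.45), Tenm4 (5.12), Ccdc187 (4.03), Mt-nd4l (3.97), Acvr1c (3.18) and Sst (8.84). These are the directions of near-normal PX against sham for each of these genes and scores.

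PX 44 had the highest mitochondrial share of near-normal PX, 1.66% of counts against 0.831% for the next, and the lowest Tnc at 2.81. PX 70 was lowest for Shc2 at 2.03, and PX 37 was highest for Cacnb3 at 6.59. In sham, log2 CPM was -0.31 for Cd53 in sham 74, 0.57 for Psmb8 in sham 47, 7.45 for Prlr in sham 22 and 7.14 for Cacnb3 in sham 50.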

How the results depend on the processing

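No alternative turned the direction of a called gene that the text names. Against 964 rises and 292 falls, library totals only gave 578 and 1017 (median of all genes -0.26), the acinar covariate 367 and 53, and sham 46 to 50 alone 169 and 5. Falls numbered 462 with DESeq2 and 500 with all 21 libraries. Leaving out 1 library gave 504 (PX 62) to 1379 (sham 46) rises and 60 (PX 62) to 674 (PX 44) falls; among other such fits, falls were 529 (PX 37), 540 (sham 46), 119 (PX 66), 139 (PX 70), 186 (sham 47) and 180 (sham 48). Chosen after seeing the data, leaving out PX 62 and sham 46 gave 188 falls, PX 44 and PX 62 170 falls, and PX 44 and sham 46 1893 rises and 1282 falls. The cause of these differences was not tested. Of 68 called genes considered for the text, 35 kept their call with sham 46 to 50 alone, 49 with the acinar covariate, 53 without PX 62 and 62 with library totals only; DESeq2 gave 10 genes no adjusted p. With library totals only the endothelial score difference was 0.13 (adjusted p = 0.505) and the beta identity difference -0.47, against -0.21. Leaving out 1 library, it ran from 0.35 to 0.48, the beta identity difference from -0.24 to -0.15 and the insulin share difference from -3.70 to -2.35 percentage points; the first lost its call without PX 62, PX 66, PX 70 or sham 48, the second without PX 62 or PX 66, and the third passed without PX 70, sham 24 or sham 46. No paired analysis was possible because the groups share no animal numbers. Library depth and 5 PX libraries limit what could be called: genes under about 10 counts were not tested.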
